A study of Drosophila melanogaster with 3 samples.

Results

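The HA-Ubx peaks on the X chromosome of a Drosophila cell line are described here. They were taken as every entry of the deposited peak list whose sequence name was X, which gave 1344 of 10337 peaks, or 13.0% (95% Wilson interval 12.4% to 13.7%). The study profiled where Ultrabithorax (Ubx) sits on the genome of S2-DRSC cells, a line derived from late embryos. The cells carried a stably transfected gene for HA-tagged Ubx. Chromatin was precipitated with an antibody against the HA tag in 2 replicates, and 1 input sample was sequenced beside them. All 3 samples carried the HA-Ubx transgene, and all had received copper sulphate, at 10 micromolar over 24 h. Not given in the sources used here are the promoter that drives the transgene, whether the line is 1 clone and whether the replicates were separate cultures. Cells without the transgene were not analysed here.

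Ubx is a Hox protein that gives the posterior thorax and anterior abdomen of the fly their identity. Its homeodomain binds short AT-rich sites, often together with the cofactors Extradenticle and Homothorax, so a single gene can carry many binding regions spread over its introns and flanks. S2 cells have a male type of X chromosome. In male flies and cells, the dosage compensation complex (MSL) binds along the X and raises the transcription of its genes.

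Both immunoprecipitation replicates share 1 peak list, so a peak has 1 position, 1 width and 1 score and no replicate error. Reads per sample were not analysed here, and the depth behind a peak is unknown. The score is the authors' own measure, and the labels do not say which quantity it is. A higher score is read here as a stronger peak. Positions are those of the dm3 build, counted from 1. The reference genome at hand is Release 6, whose positions cannot be exchanged with those of dm3. Peaks are therefore named by position, with no gene and no sequence. Intervals are 95% intervals that cover counting error only. They treat neighbouring peaks as independent, which they are not, and differences between X and the other arms were not tested over samples.

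The X peaks ran from position 139706 to 22415634 and covered 1.03 Mb, or 4.61% of that span. They were 191 to 4478 bp wide with a median of 608 bp, and the central 50% measured 412 to 966 bp. Their scores ran from 3.44 to 135 with a median of 24.2, and the central 50% scored 15.9 to 35.9. The sequence XHet, which holds mapped heterochromatin of the X, had 1 further peak, which was not counted among the X peaks.

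HA-Ubx peaks occurred in every 1 Mb bin of X, in uneven numbers. The 22 complete bins held 33 to 93 peaks, with a median of 63, so the fullest bin held 2.82 times as many as the emptiest. The fullest bin, at 13000001 to 14000000, held 93 peaks (Poisson interval 75.1 to 114). It was followed by 7000001 to 8000000 with 91 peaks, 15000001 to 16000000 with 85, 3000001 to 4000000 with 81 and 11000001 to 12000000 with 73. The emptiest bin, at 14000001 to 15000000, held 33 peaks (22.7 to 46.3) and lay between the fullest bin and the third fullest.

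The other sparse bins were spread along the whole chromosome. The first bin, at the distal end, held 34 peaks (23.5 to 47.5), none of them in its first 139705 bp. The bin at 20000001 to 21000000 held 37 peaks (26.1 to 51.0), the bin at 9000001 to 10000000 held 43 and the bin at 4000001 to 5000000 held 44. In 6 bins the Poisson interval lay below the median of 63, and in 4 bins it lay above it. The last 0.416 Mb, beyond the last complete bin, held 14 peaks.

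Peak number did not build up towards either end of X, where counts lay below the median of 63. The first bin held 34 peaks, bins 21 and 22 held 37 and 48, and the last 0.416 Mb held 33.7 peaks per Mb. Bins 1 to 11 held 674 peaks and bins 12 to 22 held 656. Full and sparse bins often stood side by side, with a median step of 18 peaks between neighbouring bins and a largest step of 60. Across the 21 neighbouring pairs, which share bins and are given as a description, Pearson's r was -0.37 and Spearman's rho was -0.34. With bins shifted by 500 kb the fullest lay at 1500001 to 2500000 with 90 peaks, so which bin ranks first depends on where bins start. The shifted bins at 13500001 to 14500000 and at 14500001 to 15500000 held 61 and 64 peaks. The step of 60 between the fullest and the emptiest bin thus also depends on where bins start. The 95 complete bins of 2L, 2R, 3L and 3R held 15 to 142 peaks, with a median of 85. The variance of the bin counts was 5.27 times their mean on X, against 10.1 on 2L, 6.91 on 2R, 8.98 on 3L and 5.83 on 3R. Bins of X held fewer peaks, with a median of 63 against 85, and the part of this in the ratios was not tested.

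**Figure D1:**
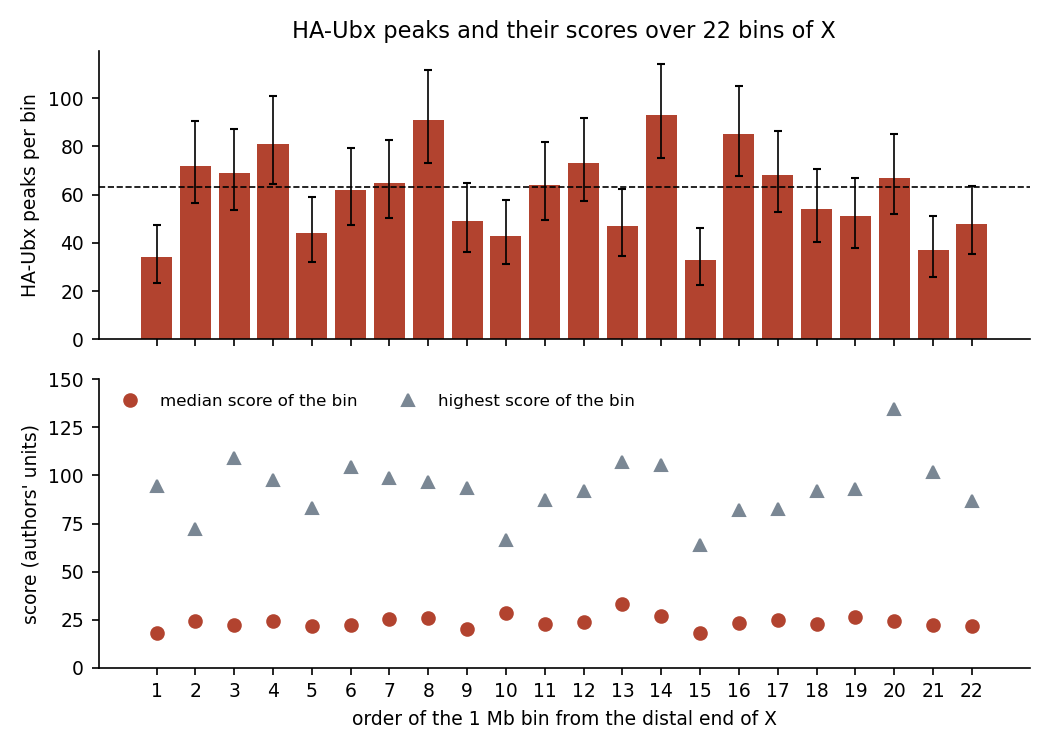
Peaks per complete 1 Mb bin of X in order from the distal end (top, bars with 95% Poisson intervals, dashed line at the median of 63) and the median and highest score of each bin (bottom, authors' score units). Bin counts lie between 33 and 93, while 17 of the 22 median scores lie within 3 units of the X median of 24.2.

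The typical score of a bin varied less than its number of peaks. Bin medians ran from 18.3 to 33.2, and 17 of 22 lay within 3 units of the X median of 24.2. The sparse bins at 14000001 to 15000000 and at the distal end had the lowest medians, 18.34 and 18.35. Across the 22 bins, the number of peaks rose with the median score by Spearman's rho (0.45) and by Pearson's r (0.30), given as a description of 1 list. The highest median, 33.2, belonged to the bin at 12000001 to 13000000, which held 47 peaks.

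That bin held both the largest run of peaks and most of the longest peak-free stretch on X. A run is here a chain of at least 2 peaks in which each midpoint lies within 5000 bp of the next. The largest run, at 12609622 to 12659902, counted 27 peaks in 50.3 kb, which covered 49.8% of it. It supplied 57.4% of the peaks of its bin, and without it the remaining 20 peaks had a median score of 24.7.

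The 27 peaks were strong as a group. Their scores ran from 10.6 to 107, with a median of 39.6, and 23 of them lay above the X median. Of the 27, 9 (33.3%, Wilson interval 18.6% to 52.2%) belonged to the 10% of the whole list with the highest score, which means a score of at least 56.8. Peaks of that class are called strong below, and X held 127 of them. The highest, at 12629053 to 12630595, scored 107, and its neighbour at 12631050 to 12632047 scored 68.9.

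A second group of high scores stood towards the right end of the run. There, 5 adjacent peaks between 12644028 and 12650888 scored 68.7, 59.8, 87.8, 86.0 and 105. Between these groups, 4 peaks from 12633068 to 12641478 scored 28.3 to 30.9. Outside both groups, strong peaks at 12618004 and 12658718 scored 90.3 and 69.6. The run thus held separate score maxima rather than a single centre. Midpoints inside it were a median of 1718 bp apart, and the steps ranged from 681 to 4431 bp.

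The sides of the run differed. On its left, 15 peaks lay in the 246 kb that separate it from a peak-free stretch of 441 kb, close to the X average of 60.3 peaks per Mb. The right side was sparser, with a single peak of 269 bp at 12679082 to 12679350, which scored 22.04, before the next at 12790497. These 2 peaks were 111 kb apart, and the left side also held a peak-free stretch, of 104 kb at 12368724 to 12472904. Directly beside the run, the gap was longer on the left, with 44.7 kb against 19.2 kb on the right. When peaks with edges less than 1000 bp apart were joined, the 27 peaks became 11 regions.

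The second run was denser and less strong. It held 18 peaks in 19.9 kb at 7585276 to 7605137, or 9.06 peaks per 10 kb, against 5.37 in the largest run. Its median step was 1177 bp, its peaks covered 58.7% of it, and joining left 2 regions. The scores ran from 10.6 to 65.7 with a median of 31.3, 13 of 18 lay above the X median, and 1 was strong (5.56%, 0.988% to 25.8%). Its peaks were narrow, with a median width of 516.5 bp against 845 bp in the largest run.

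Runs of 11 peaks stood at 19041712 to 19065389 and at 20924088 to 20944891. In the first, a peak of 947 bp at 19046951 scored 88.5 and the other 10 scored between 13.2 and 67.0. In the second, the peak at 20931239 to 20932110 scored 102 and its left neighbour 60.9, and the last peak of the run, at 20943576 to 20944891, scored 77.2. Both runs thus held strong peaks beside peaks below the X median of 24.2.

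**Figure D2:**
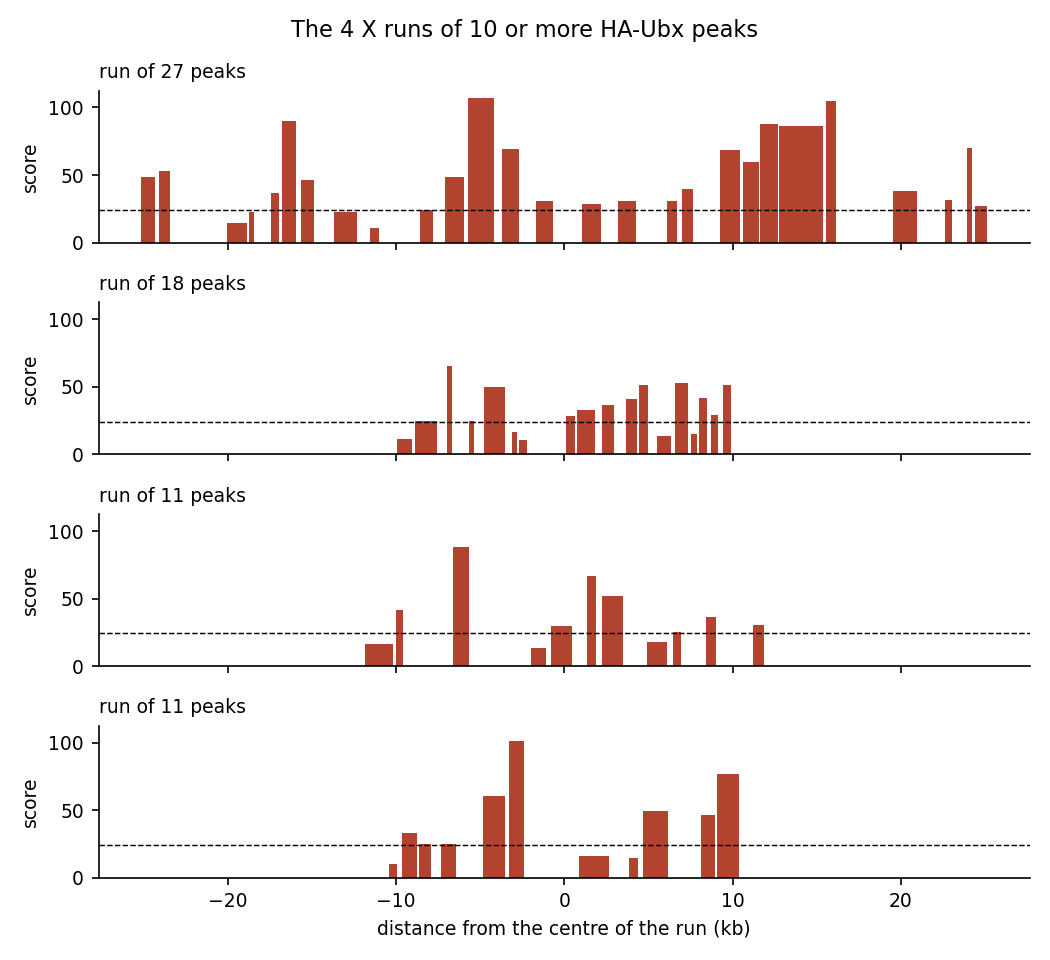
Peaks of the 4 largest X runs, drawn at their distance from the centre of the run in kb, with bar width for peak width, bar height for score and a dashed line at the X median score of 24.2. The run of 27 peaks has its highest bars left of its centre and again near 15 kb to the right, while the run of 18 peaks has no score above 65.7.

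The next 6 runs held 8 or 9 peaks each. The 4 runs of 9 peaks lay at 3634618 to 3655608, 13629487 to 13649657, 10622536 to 10639761 and 6746557 to 6763147. The last had the highest median score of the 10 largest runs, 52.4, with all 9 scores between 13.5 and 60.2. The runs of 8 with the greatest length lay at 2180425 to 2201005, where the second-highest score of X was found, and at 21558372 to 21575693. The run at 21558372 had a median of 19.9 and no strong peak, and it ended directly at the second-longest peak-free stretch of X.

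In all, 920 X peaks (68.5%, Wilson interval 65.9% to 70.9%) belonged to 289 runs and 424 peaks were isolated. Runs of at least 5 peaks numbered 37 and held 278 peaks (20.7%, 18.6% to 22.9%) in 543 kb, or 2.44% of the span. Their lengths ran from 3.43 to 50.3 kb, with a median of 14.2 kb. Up to 4 of them began in a single bin, as at 7000001 to 8000000 and at 13000001 to 14000000. The bins that start at 1, 4000001, 8000001 and 14000001 had none. A strong peak was present in 18 of the 37 runs, and in 10 of 37 the highest score belonged to the first or last peak. The number of runs of at least 5 peaks was 8 after joining peaks less than 1000 bp apart, 5 in the 50% of the list with the highest score, 9 with a distance of 2000 bp and 79 with 10000 bp.

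A smaller share of X peaks than of autosomal peaks stood in runs. The share was 68.5% on X, against 74.6% on 2L, 75.7% on 2R, 77.1% on 3L and 73.8% on 3R, and the upper end of the X interval (70.9%) was below the lower end on each of these arms. The difference lay in runs of 5 to 9 peaks, which held 15.7% of X peaks (13.9% to 17.7%) against 22.6% on the 4 large autosomal arms together (21.7% to 23.6%). Runs of 10 or more held 4.99% on X (3.94% to 6.28%) and 4.32% on the large arms (3.90% to 4.79%), with overlapping intervals. By number of peaks, the X runs of 27 and 18 had rank 2 and shared rank 5 among the runs of these 5 arms. X also had fewer peaks per Mb, with 60.3 against 77.8 on 2L, 86.4 on 2R, 89.5 on 3L and 83.1 on 3R, and the part of this lower density in the difference was not tested.

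**Figure D3:**
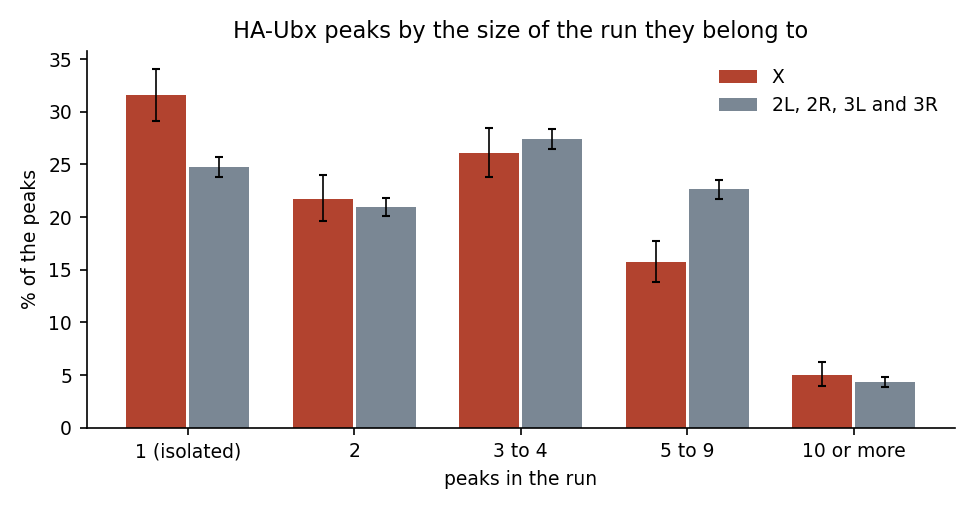
Percentage of HA-Ubx peaks by the number of peaks in their run, for X and for the 4 large autosomal arms together, with 95% Wilson intervals. Isolated peaks make up 31.5% on X and 24.7% on the large arms, and runs of 5 to 9 peaks hold 15.7% on X and 22.6% on the large arms.

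At the shortest distances the spacing on X and on the autosomes differed little. Of the steps between adjacent midpoints, 9.68% on X and 10.1% on the large arms were at most 1 kb, and 25.7% on X and 27.0% on the large arms were at most 2 kb. At 5 kb the shares were 47.0% on X and 52.6% on the large arms, and at 20 kb they were 79.4% on X and 84.8% on the large arms. From edge to edge, the typical gap (median) was 4.86 kb on X, against 3.79 kb on the large arms.

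The peaks of the largest runs had higher median scores and widths than isolated peaks. The median score was 36.4 in the 4 runs of 10 or more (67 peaks, 95% order-statistic interval 29.9 to 46.1), 25.1 in runs of 5 to 9 (22.8 to 28.3), 22.8 in runs of 2 (20.7 to 25.1) and 23.1 for isolated peaks (21.9 to 25.4). Median widths in these classes were 810, 704, 571 and 549 bp. Strong peaks made up 22.4% of the peaks in runs of 10 or more (14.1% to 33.7%) and 9.67% of isolated peaks (7.21% to 12.9%). Of the 15 strong peaks in runs of 10 or more, 9 belonged to the largest run, so this share rests mostly on a single run. Without the largest run, the other 40 peaks in runs of 10 or more had a median score of 31.7 (24.7 to 42.0). Over all runs the difference was small, with a median of 24.4 in runs against 23.1 for isolated peaks, and their intervals overlapped. On a single series of scores, described last, lay 66.7% of isolated X peaks and 36.7% of peaks in runs of at least 5. None of the 27 peaks of the largest run lay on it. The part of this in these score comparisons was not tested.

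Long stretches of X held no peak. There were 41 stretches of at least 100 kb, which together made up 6.23 Mb or 28.0% of the span. On the other arms such stretches made up 18.5% (2L), 14.5% (2R), 13.3% (3L) and 14.8% (3R). Per Mb, X had 1.84 of them, against 1.22 on 2L, 0.993 on 2R, 0.899 on 3L and 1.04 on 3R. Peaks per Mb were fewer on X, with 60.3 against 77.8 to 89.5 on these arms. The part of this lower density in the number and share of long stretches was not tested. The read coverage and mappability of these stretches were not examined, so a stretch without a peak need not be free of HA-Ubx.

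The longest stretch, of 441 kb from 11923285 to 12364089, was flanked by peaks that scored 38.1 and 26.1. The second, of 282 kb from 21575694 to 21857487, lay in the proximal part between a run of 8 peaks and a peak that scored 10.0. Stretches of 274 kb at 20631934 to 20906307 and of 270.1 kb at 14204375 to 14474440 followed. The last of these lay in the emptiest bin, and the one before it ended shortly before the run of 11 peaks at 20924088. A further 3 exceeded 200 kb, with 224 kb at 4979052 to 5202853, 222 kb at 9767325 to 9989227 and 215 kb at 10787657 to 11002317. The last 3 of the 10 longest measured 188, 172 and 158 kb and began at 17790493, 4630988 and 7629749.

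The peaks at the edges of these stretches did not differ from the others in score beyond the intervals. The 82 flanking peaks had a median score of 23.3 (order-statistic interval 22.04 to 28.5), against 24.2 for the other X peaks (22.8 to 25.1). Of the 82, 47 were isolated and 7 belonged to runs of at least 5 peaks. Strong peaks made up 6.10% of them (Wilson interval 2.63% to 13.5%) and 9.67% of the other X peaks (8.16% to 11.4%), with overlapping intervals.

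Counted in 100 kb windows, X had 22 of 222 complete windows without a peak (9.91%, 6.64% to 14.5%), against 5.10% on the large arms (3.88% to 6.68%). The empty windows formed 16 blocks, the longest of 3 windows at 12000001 to 12300000. At the other extreme, 13 windows held at least 15 peaks. The fullest were 12600001 to 12700000 with 28 peaks, 7500001 to 7600000 with 25, 13200001 to 13300000 and 15300001 to 15400000 with 20 each, and 1700001 to 1800000 with 19. The fullest 10% of windows held 26.9% of the X peaks, against 25.3% on 2L, 23.5% on 2R, 24.2% on 3L and 24.3% on 3R. The variance of the window counts was 3.94 times their mean on X, inside the range of 3.74 to 4.69 on the large arms. Windows held a mean of 6.03 peaks on X, against 7.74 to 8.95 on these arms. The part of this lower density in the ratios, the fullest windows and the empty windows was not tested.

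No X peak was more than 100 kb from another by midpoint. The most isolated, chosen after its values were seen, was a peak of 573 bp at 20631361 to 20631933 with a score of 17.5, whose nearest midpoint was 98.9 kb away. In 77 peaks the nearest midpoint was at least 20 kb away, and their median score was 22.7, with 4 strong peaks among them.

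The strongest X peaks lay both in and outside the large runs. Runs of at least 5 peaks held 37 of the 127 strong peaks and 5 of the 20 strongest, beside 20.7% of all X peaks. The highest score of X, 135, belonged to a peak of 1440 bp at 19179221 to 19180660, in a run of 3, and it ranked sixth in the whole list. The second X peak, at 2183098 to 2183784, scored 109 and ranked only 33rd in the list. It was followed by 12629053 to 12630595 with 107, 12981308 to 12981983 with 106, 13708809 to 13711478 with 105.4, 12650313 to 12650888 with 105.0 and 5895194 to 5895862 with 104.6. The peaks at 2018266 to 2018936 and at 20931239 to 20932110 scored 102.0 and 101.5. The remaining 11 of the 20 strongest scored 91.8 to 99.3.

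These 20 peaks came from 14 bins. Of the 20, 5 lay in runs of at least 5 peaks, 10 in runs of 2 to 4 and 5 were isolated, among them the peak at 5895194, with its nearest midpoint 8.50 kb away, and the peak at 8518809 to 8519242, with its nearest 18.6 kb away. The bin at 12000001 to 13000000 supplied 3 of them. Strong peaks by the list threshold numbered 2 to 13 per bin, with 13 each at 7000001 to 8000000 and at 12000001 to 13000000. They made up 9.45% of X peaks (Wilson interval 8.0% to 11.1%) and 10.8% of peaks on the large arms (10.2% to 11.5%), with overlapping intervals. Scores of X and of these arms differed in their share on a single series of values, as described last. The part of this in the comparison was not tested.

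Strong peaks were wider as a class, with a median width of 793 bp, against 577 bp for the other X peaks. Strong peaks made up 19.5% of the peaks of at least 2000 bp (Wilson interval 10.2% to 34.0%), beside 9.45% of all X peaks. Of the 20 strongest peaks, 6 were narrower than the X median of 608 bp, and the peaks at 7180609 and 8518809 were 434 bp wide. Among the 10 widest peaks, 1 was also among the 20 strongest, at 18259933 to 18263168, with 3236 bp and a score of 93.1. The widest X peak, at 17191585 to 17196062, measured 4478 bp and scored 20.4, a value with more decimals than most scores. The second, of 4271 bp at 1980543 to 1984813, scored 35.9, and the third, of 3573 bp at 1168794 to 1172366, scored 55.9.

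The next of the widest peaks, of 3372 bp at 12557251 to 12560622, scored 57.7. It belonged to a run of 6 that ended 44.7 kb before the largest run. The peaks at 2539610 to 2542920 (3311 bp) and 7510244 to 7513282 (3039 bp) scored 36.3 and 64.8. The peaks at 5809016 to 5812158, 16226729 to 16229655 and 548135 to 550997 measured 2863 to 3143 bp and scored 13.2 to 19.7. Thus 4 of the 10 widest scored below the X median.

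Over all X peaks, score and width were weakly related across peaks (Spearman's rho 0.24, Pearson's r 0.19). In 4 width classes of nearly equal number, the median score was 18.8 in the narrowest (up to 412 bp, order-statistic interval 17.9 to 21.0), 24.7 in the second, 27.4 in the third and 26.6 in the widest (from 968 bp, 24.7 to 28.3). The narrowest class thus stood below the others, whose intervals overlapped. Strong peaks made up 3.24%, 8.11%, 12.5% and 14.0% of these classes, from narrowest to widest. Peaks of at least 2000 bp numbered 41 on X (3.05%, Wilson interval 2.26% to 4.11%), against 4.33% on the large arms (3.91% to 4.80%). They came from 16 bins, with 5 each in the bins that start at 1000001 and 2000001, and 8 of the 41 were strong.

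**Figure D4:**
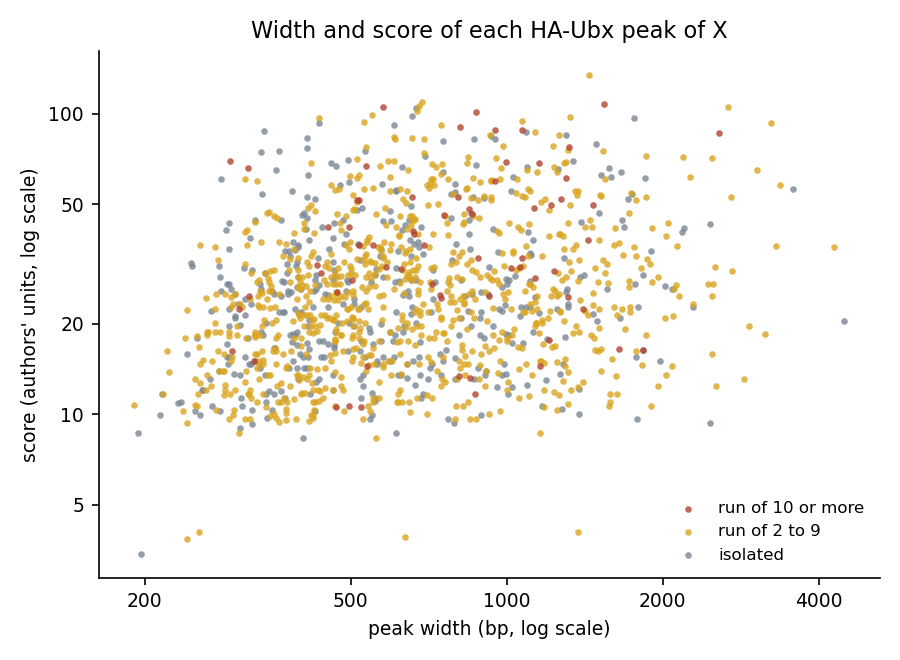
Width in bp and score of each of the 1344 X peaks, both on log scales, coloured by the size of the run. Points of runs of 10 or more lie mostly in the upper part, the highest score belongs to a peak of 1440 bp, and 5 points under a score of 5 stand apart from all others.

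The scores of X and of the autosomal arms differed in how often they recurred and in their share on a single series of values. On X, 757 of 1344 peaks (56.3%) shared their exact score with another X peak, against 34.6% within the larger set of peaks of the 4 large autosomal arms together. The most common X score, 18.8, occurred 19 times. From the scores that recurred on the large autosomal arms, the longest stretch whose steps widened slowly was taken as a ladder. The widening was thus a rule of choice and not a result. The 6 consecutive recurring scores from 9.64 to 11.3 on those arms were matched, to within 4.64e-06, by the negative log10 of the upper tail of a Poisson distribution with a mean of 42.8, taken at 6 consecutive whole-number counts. The next best starting count missed by up to 0.0052.

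This ladder, fitted without any X score, fitted more than every second X peak. With a tolerance of 0.00002 in the score, 763 of 1344 X scores lay on it (56.8%, Wilson interval 54.1% to 59.4%), up to the fourth-highest score of X. On the large arms it was 532 of 8123 (6.55%, 6.03% to 7.11%), with 7.10% on 2L, 6.46% on 2R, 6.03% on 3L and 6.69% on 3R. Each of the 22 bins of X, with 31.3% to 79.4% of its peaks on the ladder, lay above each of the 95 bins of the large arms, which had 0% to 26.7%. The difference was of like size among strong peaks, with 53.5% on X (44.9% to 62.0%) and 3.97% on the large arms (2.87% to 5.47%).

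**Figure D5:**
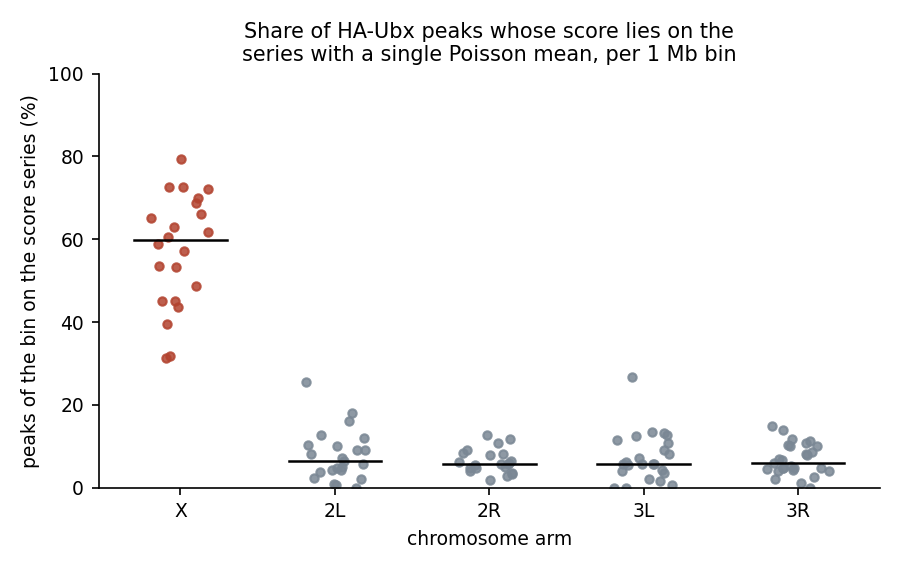
Percentage of the peaks in each complete 1 Mb bin whose score lies on the series with a Poisson mean of 42.8, for X and the 4 large autosomal arms (1 point per bin, line at the median, horizontal scatter only for display). All 22 X bins, from 31.3% to 79.4%, lie above the highest autosomal bin at 26.7%.

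MACS2, the peak caller that the submitters' processing notes name, computes a Poisson p-value of the reads at a peak, in its usual mode against the larger of a local and a genome-wide expectation. A score on the ladder has the form of such a value against 1 expectation shared by many peaks. Taken so, the 763 X peaks on it had implied counts of 68 to 253 with a median of 124, or 1.59 to 5.91 times the expectation with a median of 2.89. The peak at 12981308 to 12981983 had the highest implied count, 253, and the peak at 13708809 had 252. The caller's settings are not stated, the read coverage of the input and the number of X copies in these cells were not examined, and their part in the X share was not tested.

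Along X the ladder was unevenly used. Bins 1 to 11 had 61.6% of their peaks on it (57.8% to 65.2%) and bins 12 to 22 had 52.6% (48.8% to 56.4%). The first bin had the highest share, 79.4%, and the bins at 19000001 to 20000000 and at 12000001 to 13000000 the lowest, 31.3% and 31.9%. Both low bins held a large run without a peak on the ladder, with 11 peaks in the first and 27 in the second. In the bin at 12000001 to 13000000, the 15 peaks on the ladder were all among the 20 outside the largest run. Of the peaks in runs of at least 5, 36.7% lay on it (31.2% to 42.5%), against 66.7% of isolated peaks (62.1% to 71.1%).

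The 2 largest runs differed in this respect. None of the 27 peaks of the largest run lay on the ladder. A limit of 3 counts then allows a share of up to 11.1%, and the Wilson interval reaches 12.5%. In the second run, 10 of the 18 peaks lay on it (33.7% to 75.4%). Of the 20 strongest X peaks, 11 were on it, while the 3 highest scores were not. The median score was 23.7 for X peaks on the ladder and 24.6 for those off it, and the median widths were 553 and 657 bp.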

How the data were processed

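HA ChIP-seq peaks of S2-DRSC cells with HA-Ubx were analysed from 1 list without a header. Reads were aligned with BWA 0.7.12 to dm3 and peaks were found with MACS2, per the submitters' processing notes. Not given in the sources used here are the thresholds, the use of the input and how replicates were combined. The deposited score of each peak is the authors' own, and which quantity it is was not stated. Starts, counted from 0 in the deposited list, were raised by 1.

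Members, lists and limits were chosen with earlier results of these data known. Named items follow a fixed rule: the 20 strongest and 10 widest peaks, the 10 largest runs and 10 longest stretches, and the 5 fullest and emptiest bins and 5 fullest windows. The score ladder was found after the scores were seen. Its Poisson mean was fitted to scores occurring at least 4 times on 2L, 2R, 3L and 3R. Of these, the longest stretch with slowly widening steps was used, which held 6 scores. Bins take peaks by midpoint. Median intervals come from order statistics. The code was tested on simulated chromosomes. Calculations used Python 3.11.15, numpy 2.4.6, pandas 2.3.3, scipy 1.17.1 and matplotlib 3.10.9.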

Additional observations from a re-analysis of the deposited data

How the results depend on the processing

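Of 31 recalculated values, 15 stayed within 1.5 times the count or within the interval or spread of the value reported, and 16 moved, most of them by construction. In the 50% of the list with the highest score, the median per bin was 30.5 peaks, 46.3% of the remaining X peaks stood in runs, and there were 5 runs of at least 5 peaks, 66 stretches of at least 100 kb, 63 strong peaks and 26 wide peaks. There the score difference between peaks in runs and isolated peaks was 2.17, and the variance-to-mean ratio on X was 1.11 times the median of the large arms, against 0.956 in the full list. With a run distance of 2000 bp the share in runs was 42.6% with 9 runs of at least 5, and with 10000 bp it was 84.4% with 79. Joining peaks less than 1000 bp apart gave 44.5%, 8 runs and 146 wide peaks. The top 5% of the list held 63 X peaks. The largest run was again at 12609622 to 12659902 with 10000 bp, but at 7595335 to 7605137 (11 peaks) with 2000 bp and at 5767230 to 5787601 (6 peaks) after joining. The share of X scores on the ladder was 55.7% to 59.0% under 3 alternatives. These 3, and the score difference without the largest run (0.935) or without scores of more than 5 decimals (0.727), were chosen after seeing the data. No replicate could be left out. No paired analysis was possible because a single list stands for both ChIP replicates. The depth of each library is unknown.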

Other observations

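The 5 X peaks that scored under 5 stood apart from the rest. Their scores were 3.44 to 4.06, and the next score on X was 8.36. In the whole list, 61 peaks scored at most 4.14 and none lay between that value and 8.36. On X the low scores belonged to peaks at 2970781 to 2970977, 4957384 to 4957624, 5312059 to 5313431, 8495687 to 8495941 and 21567036 to 21567670, the last inside a run of 8 peaks. The ladder held 3 of these 5 scores.

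Most scores had at most 5 decimals, but 50 X peaks (3.72%) had more, against 257 peaks (3.16%) on the 4 large autosomal arms. Those X peaks had a median width of 1264.5 bp, against 578.5 bp for the other X peaks. The widest X peak was the only one of the 10 widest among them.

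The sequence Uextra, which joins unplaced scaffolds, also had many scores on the ladder, with 184 of 594 peaks (31.0%, Wilson interval 27.4% to 34.8%). Chromosome 4 had 5 of 61 (8.20%, 3.55% to 17.8%).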
